A study of Mus musculus with 12 samples.

Results

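The genes described here build and sulfate glycosaminoglycans, the long sugar chains of proteoglycans. A list of 44 names was drawn up by function: enzymes of the linker, of chondroitin and heparan sulfate chains and of their sulfation, and the genes that supply sulfate and sugar precursors. Of these, 41 were among the 14712 genes of the deposited table of mouse cartilage RNA. Chst7, Chst13 and Hs6st2 were not analysed here.

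RNA was sequenced from growth plate and articular cartilage cut by laser from frozen knee sections of mice aged 3 months. The mutants were Sox9fl/fl AcanCreERT2/+ at 7 days and at 14 days, and Sox8fl/fl Sox9fl/fl AcanCreERT2/+ at 14 days. AcanCreERT2 is an inducible Cre placed at Acan, the gene of the proteoglycan aggrecan, and floxed alleles are deleted where it is active. The controls were Sox9fl/fl at 7 days and at 14 days, and Sox8fl/fl Sox9fl/fl at 14 days, with no Cre. The column headers also name a reporter allele, R26tdT/+, for the Sox9 sets. The labels do not say what day 0 was. There was a single library of each tissue for every genotype and day, so 12 in all: 3 of mutant growth plate, 3 of control growth plate, 3 of mutant articular cartilage and 3 of control articular cartilage. Every mutant and no control carried Cre, so the loss of the floxed genes and the presence of Cre cannot be told apart. The labels do not tie the captured regions to animals, so p-values rest on library-to-library spread alone, which may be technical, and they would be too small if regions shared an animal.

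Cartilage resists compression because its proteoglycans, chiefly aggrecan, carry many chondroitin sulfate chains whose sulfate groups bind water. Chains start with a short linker of sugars on a serine of the core protein. One route then adds N-acetylgalactosamine and makes chondroitin or dermatan sulfate, and the other adds N-acetylglucosamine and makes heparan sulfate, which binds growth factors. Sulfotransferases take sulfate from a donor, 3′-phosphoadenosine 5′-phosphosulfate (PAPS), which the cell makes from imported sulfate. Loss of single genes of the pathway, such as Papss2, Slc26a2, Chst11, Csgalnact1, Xylt1 or Slc35d1, is known to cause short or malformed skeletons in mice.

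RefSeq promoter sequences on build GRCm38.p6, from 250 bases before to 50 bases after each start, were matched by symbol for 32 of the 41 genes. They are shown for Papss2, Chst11 and Slc35d1, which fell in the mutant growth plate, and for Chst3, which did not. Chst3 was low in both growth plate groups. Papss2 has a pair of starts. Capitals mark the words ACAAAG and ACAATG, which are cores of motifs bound by SOX proteins, and the GC box word GGGCGG, each searched on both strands.
Papss2, chr19:32595465-32595764, plus strand: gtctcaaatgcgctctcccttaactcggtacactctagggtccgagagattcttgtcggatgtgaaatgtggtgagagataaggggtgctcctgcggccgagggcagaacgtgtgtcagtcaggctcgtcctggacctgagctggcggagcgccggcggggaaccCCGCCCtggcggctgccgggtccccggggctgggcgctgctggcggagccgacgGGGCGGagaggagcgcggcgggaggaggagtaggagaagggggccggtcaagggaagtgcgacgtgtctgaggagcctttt
Papss2, chr19:32619755-32620054, plus strand: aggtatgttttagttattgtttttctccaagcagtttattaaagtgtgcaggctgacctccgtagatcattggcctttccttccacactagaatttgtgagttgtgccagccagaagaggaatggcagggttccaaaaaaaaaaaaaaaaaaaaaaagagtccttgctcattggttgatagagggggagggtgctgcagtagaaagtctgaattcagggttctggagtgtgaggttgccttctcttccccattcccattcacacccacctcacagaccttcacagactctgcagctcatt
Chst11, chr10:82985247-82985546, plus strand: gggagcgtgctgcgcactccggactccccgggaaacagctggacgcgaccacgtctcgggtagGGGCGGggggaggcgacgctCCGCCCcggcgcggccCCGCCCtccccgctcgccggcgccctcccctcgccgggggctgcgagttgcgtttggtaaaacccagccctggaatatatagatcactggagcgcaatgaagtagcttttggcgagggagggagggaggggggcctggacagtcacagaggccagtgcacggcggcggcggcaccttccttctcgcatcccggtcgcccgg
Slc35d1, chr4:103215127-103215426, minus strand: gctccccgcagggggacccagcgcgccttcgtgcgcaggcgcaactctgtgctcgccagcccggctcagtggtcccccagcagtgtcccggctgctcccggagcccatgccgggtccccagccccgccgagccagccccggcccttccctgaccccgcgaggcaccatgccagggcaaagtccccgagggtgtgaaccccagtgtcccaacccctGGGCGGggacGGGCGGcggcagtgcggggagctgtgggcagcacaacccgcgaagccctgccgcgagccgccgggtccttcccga
Chst3, chr10:60219211-60219510, minus strand: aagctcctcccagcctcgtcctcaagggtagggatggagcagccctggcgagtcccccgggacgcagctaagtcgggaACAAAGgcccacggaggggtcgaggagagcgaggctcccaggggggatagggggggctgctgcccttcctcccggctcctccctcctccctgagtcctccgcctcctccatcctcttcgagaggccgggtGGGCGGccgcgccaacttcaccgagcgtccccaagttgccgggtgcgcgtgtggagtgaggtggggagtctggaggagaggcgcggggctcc
A SOX word was present in 3 of the 40 promoters of listed genes, which is 7.5 percent, against 28.6 percent of all 32851 promoters in the table. A GC box was present in 26 of the 40, which is 65.0 percent, against 35.7 percent of all. The median GC content was 66.3 percent in these promoters and 52.7 percent in all. Of the 11 genes that fell in the mutant growth plate, 8 had a promoter in the table and none of these held a SOX word. The 3 promoters with one belong to Chst3, Slc35b3 and Xylt2. Most listed genes that did not fall also lacked a SOX word, so Chst3 does not represent them. These matches describe letters in a short window only.

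Values are RPKM as normalised further by the authors (named NRPKM in the file), in which reads per kilobase of transcript are scaled to the library, so levels can be compared between genes. No value lay below 1, and 1299 to 2823 genes of a library were listed at 1. Depth is unknown, because the table holds no counts. Sox9 was at 236, 148 and 35.97 NRPKM in mutant growth plate, against 314, 335 and 308 NRPKM in control growth plate, and at 304, 309 and 282 NRPKM in mutant articular cartilage, against 408, 349 and 213 NRPKM in control articular cartilage. In these and all later sets of 3 values, day 7 of the Sox9 set comes first, day 14 of the Sox9 set second and the Sox8 Sox9 set last. The library labelled articular cartilage of the Sox8 Sox9 mutant thus had more Sox9 than its control, against its label, while Sox8 was lower in the mutant of all 6 pairs. Without that library, 14 of the 41 genes passed in the growth plate mutant comparison. In the articular one 0 of the 41 passed, and only 22 of all 14712 genes did. In growth plate, 658 to 1927 of all genes passed when each library was left out in turn.

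A run of values at 1 touches 3 of the genes. In the articular library labelled Sox9 mutant at day 14, 219 consecutive genes of chromosome 3 (chr3:104794836-159938664, mm10) were all listed at 1, although 110 of them had a median of at least 5 in the other 11 libraries. The longest such run in another library was 18 to 28 genes. Papss1, Extl2 and Hs2st1 lie in the run, and their values are given below also with the run taken as missing.

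Markers of several cell types also differed between groups. The 8 listed chondrocyte markers summed to 1555 to 5351 NRPKM in mutant growth plate, against 22490.0 to 34820.0 NRPKM in control growth plate. Of the 8, 7 fell, or 87.5 percent, against 2.82 percent of all genes, among them Col2a1. The 7 include Sox9, which is itself floxed, and Acan, where the Cre is placed. The 9 osteoblast and osteocyte markers summed to 17200.0 to 23140.0 NRPKM in mutant growth plate, against 3118 to 9254 NRPKM in control growth plate. The 7 neutrophil markers summed to 359.8 to 1365 NRPKM in mutants, against 34.6 to 54.6 NRPKM in controls, and the 6 macrophage markers to 183 to 615.7 NRPKM in mutants, against 61.28 to 138.2 NRPKM in controls. None of the markers in these 4 lists was at 1 in all 3 libraries of either growth plate group. In articular cartilage, chondrocyte markers summed to 2045 to 2356 NRPKM in mutants, against 2963 to 5119 NRPKM in controls, with Matn3 listed at 1 in all 6 libraries and Col11a1 at 1 in the library with the run. Fibroblast and tendon markers summed to 939.1 to 1771 NRPKM in mutant articular cartilage, against 170.2 to 833.2 NRPKM in control articular cartilage. The part of these shifts in the results below was not tested, and in bulk RNA fewer cells of a type and less RNA per cell cannot be told apart.

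In the growth plate, the mutants had less RNA for 3 of 9 supply genes (Papss2, Slc26a2 and Slc35d1), for Xylt1 and Csgalnact1, which start the linker and the chondroitin chain, and for the 4-O-sulfotransferases Chst11 and Chst12. They had more for the uronyl 2-O-sulfotransferase Ust. Of the 41 genes, 15 passed (limma, Benjamini-Hochberg adjusted p under 0.05 over all genes), which is 36.6 percent, against 10.7 percent of all 14712 genes. Those lower were 11, or 26.8 percent, against 2.82 percent of all genes: Papss2, Extl1, Xylt1, Csgalnact1, Slc26a2, Slc35d1, Chst11, Chst12, Fam20b, Chpf and Glce. Those higher were 4, or 9.76 percent, against 7.92 percent of all genes: Ust, Sulf2, Hs2st1 and Chsy1. The median log2 difference, mutant minus control, was −0.22 over the 41 genes and 0.20 over all genes. All 3 mutants lay below all 3 controls for 14 genes (34.1 percent, against 4.96 percent of all genes) and above them for 5 genes (12.2 percent, against 19.0 percent).

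These calls differ in how much they rest on the rest of the data. Papss2, Slc26a2, Slc35d1, Chst11, Chst12, Csgalnact1, Extl1, Fam20b and Ust stayed called when any 1 of the 12 libraries was left out, and the other 6 did not. Fitted from the 6 growth plate libraries alone, limma called 0 of 14712 genes and 0 of the 41 (2755 and 19 at an unadjusted p under 0.05). From the 2 Sox9 sets it called 274 of 14712 genes and 5 of the 41: Papss2, Slc26a2, Chst11, Csgalnact1 and Extl1. With a block for each matched pair of mutant and control, 10 of the 15 were called and Xylt1, Chsy1, Glce, Hs2st1 and Sulf2 were not; with no block, these 5 and Chpf were not. The split of 4 higher and 11 lower became 1 higher and 15 lower with median ratio scaling and 1 higher and 14 lower with quantile normalisation. Under both, Ust was the gene called higher, while Sulf2, Hs2st1 and Chsy1 were not called, and Chst15, Ext2, Ugdh and Uxs1 were called lower.

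**Figure D1:**
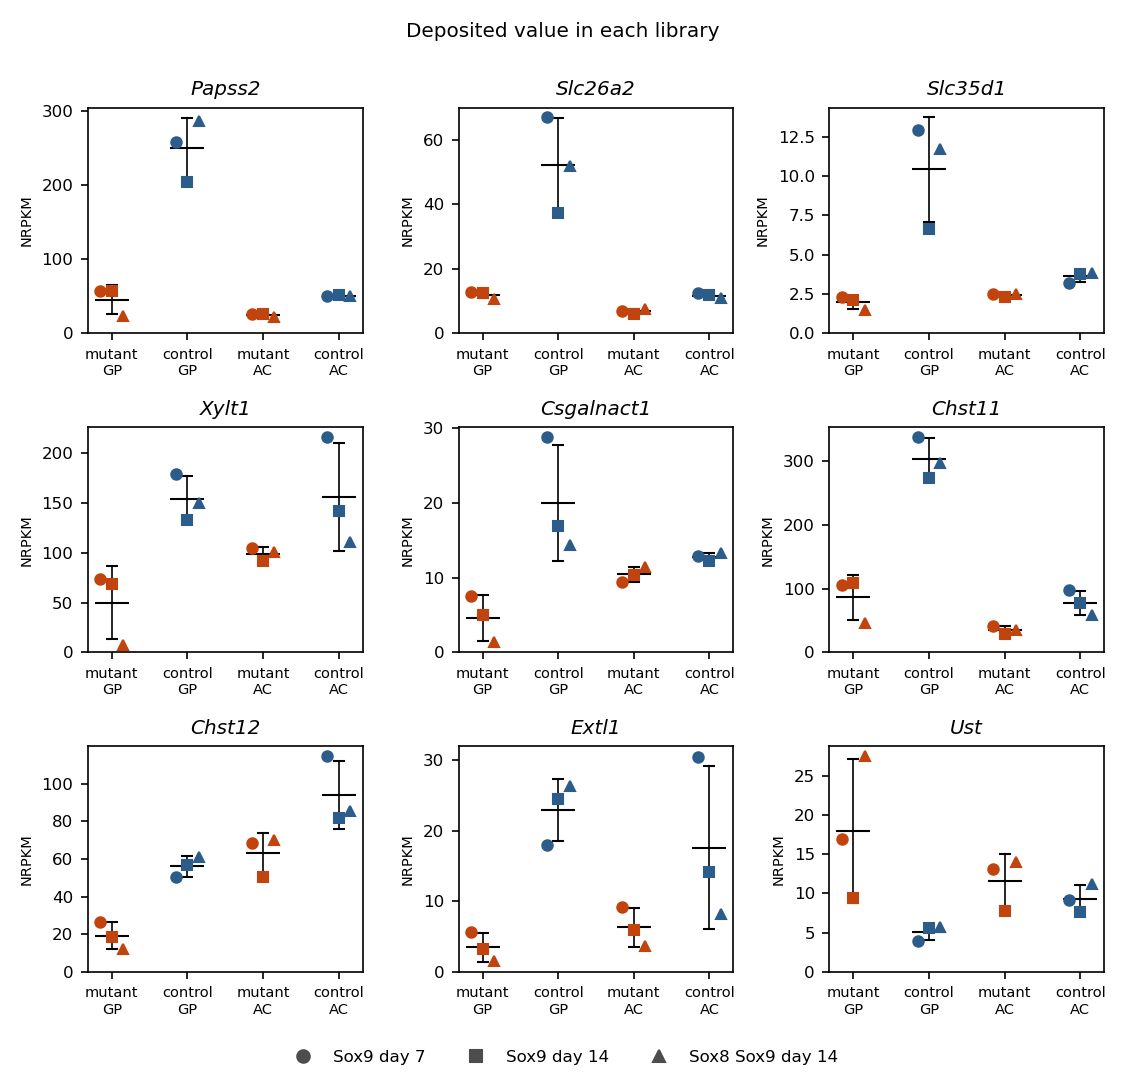
NRPKM of 9 genes in each library, with mutant growth plate (GP), control GP, mutant articular cartilage (AC) and control AC from left to right. Orange marks are mutants, blue marks are controls, the shape gives the set, and black lines are the mean ± SD of 3 libraries; in growth plate all 3 mutants lie below all 3 controls for 8 of the genes and above them for Ust.

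Of the 6 role groups, the supply of sulfate and sugar precursors had the lowest median. Of its 9 genes, 3 fell, or 33.3 percent, against 2.82 percent of all genes. Papss2 (chr19:32595790-32667187, mm10), which makes PAPS, had 56.2, 56.1 and 23.2 NRPKM in mutant growth plate, against 258, 204 and 286 NRPKM in control growth plate. The groups lay far apart, and the Sox8 Sox9 mutant was the lowest library. Means were 45.2 ± 19 NRPKM in mutants and 249 ± 41.6 NRPKM in controls (SD, n = 3 each), a 5.51-fold lower level, with a log2 difference of −2.53 ± 0.28 (SE; limma, adjusted p = 0.00109). Slc26a2, the sulfate importer of the cell membrane, had 12.7, 12.5 and 10.7 NRPKM in mutants, against 67.03, 37.4 and 51.9 NRPKM in controls. Mutant libraries were close to each other and all below the controls, with a log2 difference of −2.0 ± 0.19 (SE; adjusted p = 0.00053), the lowest adjusted p among the 41 genes. Slc35d1 (chr4:103170649-103215164), which carries UDP-sugars into the endoplasmic reticulum, had 2.29, 2.095 and 1.48 NRPKM in mutants, against 12.9, 6.66 and 11.7 NRPKM in controls. It did not overlap between groups and fell by 5.34-fold on the means, with a log2 difference of −1.92 ± 0.23 (SE; adjusted p = 0.00164).

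None of the other 6 supply genes passed. Slc35b2, a carrier of PAPS into the Golgi, had 15.5, 19.7 and 15.2 NRPKM in mutants, against 39.5, 25.7 and 25.2 NRPKM in controls, and the groups did not overlap (adjusted p = 0.0871). Ugdh, which makes the UDP-glucuronic acid that every chain needs, had 8.92, 6.14 and 10.6 NRPKM in mutants, against 17.4, 8.997 and 15.6 NRPKM in controls, with overlap (adjusted p = 0.0924). Papss1, the other PAPS synthase, differed by −0.30 ± 0.63 (SE; adjusted p = 0.826), and by −0.30 ± 0.21 with the chromosome 3 run taken as missing (adjusted p = 0.387). Uxs1, which turns UDP-glucuronic acid into UDP-xylose, the second Golgi PAPS carrier Slc35b3 and Impad1, a phosphatase of the sulfation by-product, had log2 differences of −0.45, −0.01 and −0.21. Fitted differences were below 0 for all 9 supply genes, with a median of −0.63.

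Linker genes split into a pair that fell, or 33.3 percent, against 2.82 percent of all genes, and 4 that did not pass. Xylt1 (chr7:117380979-117673580), whose xylosyltransferase starts the linker, had 73.5, 68.7 and 7.79 NRPKM in mutants, against 179, 132 and 149.7 NRPKM in controls. The Sox8 Sox9 mutant was far below either Sox9 mutant, and all 3 were below the controls. The log2 difference was −2.10 ± 0.57 (SE; adjusted p = 0.0462). Without the Sox8 Sox9 mutant library it was −1.16 (adjusted p = 0.0237). It stayed called in 3 of 12 fits that left out 1 library and reached an adjusted p of 0.156 without the Sox8 Sox9 control. Fam20b, a kinase that phosphorylates the xylose, had 7.499, 3.94 and 6.81 NRPKM in mutants, against 15.6, 14 and 16.1 NRPKM in controls. The groups stood apart, with a log2 difference of −1.23 ± 0.17 (SE; adjusted p = 0.00301). Of the others, Xylt2, which does the same step as Xylt1, B4galt7 and B3galt6, which add the galactoses, and B3gat3, which adds glucuronic acid, had log2 differences between −0.36 and 0.14.

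Among the 6 enzymes of the chondroitin chain, Csgalnact1 and Chpf fell, or 33.3 percent, against 2.82 percent of all genes. Chsy1 rose, or 16.7 percent, against 7.92 percent of all genes, and 3 did not pass. Csgalnact1 (chr8:68356781-68735146), which adds the first N-acetylgalactosamine, had 7.56, 4.97 and 1.39 NRPKM in mutants, against 28.8, 16.9 and 14.3 NRPKM in controls. Every mutant was below every control and the Sox8 Sox9 mutant was near the lowest listed value. Its log2 difference was −2.02 ± 0.35 (SE; adjusted p = 0.0073). Csgalnact2, its relative with the same activity, had 12.2, 5.72 and 11.7 NRPKM in mutants, against 5.81, 9.06 and 9.03 NRPKM in controls, with overlap (log2 difference 0.24 ± 0.30, SE; adjusted p = 0.663). Chsy1, a chondroitin synthase, had 26.8, 23.7 and 45.7 NRPKM in mutants, against 18.2, 15.7 and 16.2 NRPKM in controls. The highest library was the Sox8 Sox9 mutant, and the groups did not overlap, at a log2 difference of 0.84 ± 0.24 (SE; adjusted p = 0.0496). That call was kept in 2 of 12 fits that left out 1 library, and without the Sox8 Sox9 mutant the difference was 0.50 (adjusted p = 0.127). Chsy3, another synthase, had 21.2, 22.98 and 8.37 NRPKM in mutants, against 22.6, 16.3 and 18.5 NRPKM in controls, and the groups overlapped (adjusted p = 0.623). Chpf, a partner of the synthases, fell to 8.63 ± 2.18 NRPKM in mutants, against 14.8 ± 2.82 NRPKM in controls (SD, n = 3 each; log2 difference −0.73 ± 0.17, SE; adjusted p = 0.0257). It stayed called in 7 of 12 such fits, and without the Sox9 day 14 control its adjusted p was 0.0918. Chpf2, the second such partner, differed by 0.03 ± 0.18.

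Of the 7 listed genes for sulfation of chondroitin and dermatan, Chst11 and Chst12 fell, or 28.6 percent, against 2.82 percent of all genes. Only Ust rose, or 14.3 percent, near the 7.92 percent of all genes that did. Chst11 (chr10:82985498-83195900), the main chondroitin 4-O-sulfotransferase of cartilage, had 105, 109 and 45.5 NRPKM in mutants, against 338, 274 and 297 NRPKM in controls. It had the highest control growth plate level of the 41 genes, and each mutant was below each control. Means were 86.4 ± 35.4 NRPKM in mutants and 303 ± 32.9 NRPKM in controls (SD, n = 3 each), with a log2 difference of −1.89 ± 0.26 (SE; adjusted p = 0.00288). Chst12, a second 4-O-sulfotransferase, had 26.6, 18.8 and 12.3 NRPKM in mutants, against 50.4, 56.6 and 61.2 NRPKM in controls, again without overlap (log2 difference −1.55 ± 0.24, SE; adjusted p = 0.00453). Ust (chr10:8204756-8518825), which sulfates uronic acids at the 2-O position, had 16.99, 9.39 and 27.6 NRPKM in mutants, against 3.94, 5.63 and 5.73 NRPKM in controls. All mutants were above all controls, and the Sox9 mutant at day 14 was the nearest to them. Its level was 3.53-fold higher on the means, with a log2 difference of 1.53 ± 0.26 (SE; adjusted p = 0.00642).

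The other 4 listed genes of this step did not pass. Chst15, which adds a 6-O-sulfate to units that already carry a 4-O-sulfate, had 14.4, 9.11 and 12.4 NRPKM in mutants, against 19.3, 18.4 and 27.9 NRPKM in controls. All mutants were below all controls (log2 difference −0.82 ± 0.25, SE; adjusted p = 0.0624). Dse, the epimerase that turns chondroitin into dermatan, had 10.6, 8.402 and 15.3 NRPKM in mutants, against 12.5, 12.2 and 13.97 NRPKM in controls, with overlap. Chst3, the chondroitin 6-O-sulfotransferase, was low in both groups, at 1.48, 1.68 and 1.92 NRPKM in mutants, against 1.22, 2.21 and 3.26 NRPKM in controls. The dermatan 4-O-sulfotransferase Chst14 differed by 0.23 ± 0.22. Adjusted p-values of Dse, Chst3 and Chst14 were 0.502, 0.572 and 0.539.

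Of 5 heparan sulfate chain genes, 1 fell, or 20.0 percent, against 2.82 percent of all genes. Extl1 (chr4:134356372-134383850), an N-acetylglucosamine transferase of the exostosin family, had 5.63, 3.23 and 1.57 NRPKM in mutants, against 17.9, 24.5 and 26.3 NRPKM in controls. The groups did not overlap and the level was 6.59-fold lower on the means, with a log2 difference of −2.51 ± 0.35 (SE; adjusted p = 0.00314). Ext1, which forms the heparan polymerase with Ext2, had 13.7, 8.53 and 21.4 NRPKM in mutants, against 7.38, 8.03 and 10.1 NRPKM in controls. These groups overlapped (log2 difference 0.63 ± 0.22, SE; adjusted p = 0.0936). Ext2, Extl3, which starts heparan chains, and Extl2 differed by −0.29, 0.20 and −0.31, and Extl2 by −0.31 with the chromosome 3 run taken as missing.

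Genes that modify heparan sulfate were the only role group with a median above that of all genes, 0.34 against 0.20, and none of its calls was kept in all fits that left out 1 library. Hs2st1, the heparan 2-O-sulfotransferase, had 7.64, 5.45 and 10.96 NRPKM in mutants, against 2.44, 2.69 and 4.52 NRPKM in controls. Mutants were all higher, with a log2 difference of 1.08 ± 0.28 (SE; adjusted p = 0.0366, and 0.0198 with the run taken as missing). It was called in 4 of 12 left-out fits, and without the Sox9 day 7 control its adjusted p was 0.153. Sulf2, a secreted enzyme that removes 6-O-sulfate from heparan chains, had 5.91, 6.73 and 8.37 NRPKM in mutants, against 2.44, 1.703 and 4.43 NRPKM in controls. All 3 mutants exceeded all 3 controls (log2 difference 1.10 ± 0.29, SE; adjusted p = 0.0346), and the call was lost when any growth plate library was left out (adjusted p up to 0.113). Sulf1, which does the same, had 39.2, 30.5 and 18.8 NRPKM in mutants, against 15.3, 23.1 and 15.6 NRPKM in controls; here the Sox8 Sox9 mutant lay within the controls and the adjusted p was 0.065. Hs6st1, the 6-O-sulfotransferase, had 13.5, 9.39 and 11.3 NRPKM in mutants, against 7.57, 7.83 and 6.604 NRPKM in controls, without overlap but with an adjusted p of 0.126. Glce, the epimerase of heparan chains, fell to 3.87 ± 0.812 NRPKM in mutants, against 6.67 ± 1.51 NRPKM in controls (SD, n = 3 each; log2 difference −0.65 ± 0.17, SE; adjusted p = 0.0357); it was called in 4 of 12 left-out fits, and without the Sox9 day 7 control its adjusted p was 0.133. Ndst1, which starts sulfation of the chain, had 13.7, 7.56 and 19.5 NRPKM in mutants, against 8.56, 11.9 and 15.9 NRPKM in controls, with overlap, and its relative Ndst2 differed by 0.06. Hs3st1, a 3-O-sulfotransferase, was at 1.53, 1 and 1 NRPKM in mutants and listed at 1 in all 3 controls.

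**Figure D2:**
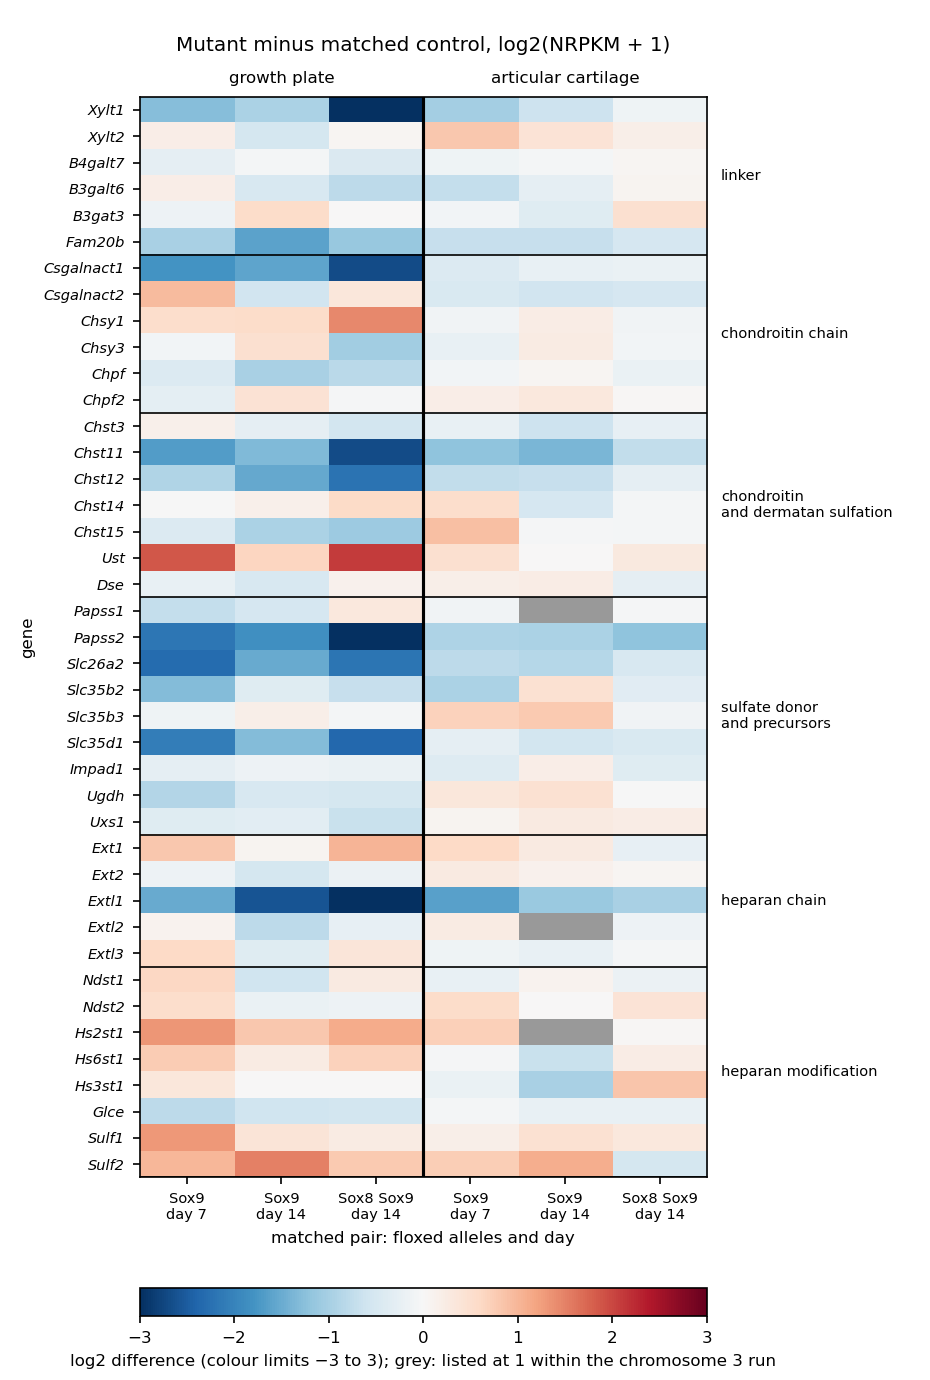
Log2 difference, mutant minus matched control, of log2(NRPKM + 1) for each of the 41 genes (down the page, by role) in each of the 3 matched pairs of growth plate (left) and articular cartilage (right); blue is lower and red is higher in the mutant. Papss2, Csgalnact1, Slc26a2 and Slc35d1 are blue in all 3 growth plate pairs and paler in articular cartilage, and grey cells are the 3 genes listed at 1 within the chromosome 3 run.

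In articular cartilage, none of the 41 genes passed, against 0.353 percent of all genes (52 of 14712; limma). At an unadjusted p under 0.05 there were 6, or 14.6 percent, against 12.3 percent of all genes, and the lowest adjusted p was 0.133, that of Chst11. The median log2 difference was −0.10 over the 41 genes and 0.13 over all genes. All 3 mutants were below all 3 controls for 8 genes (19.5 percent, against 3.09 percent of all genes) and above for 2 genes (4.88 percent, against 11.4 percent).

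Chst11 had 41.5, 28.9 and 34.6 NRPKM in mutant articular cartilage, against 97.3, 76.9 and 58.3 NRPKM in control articular cartilage. Papss2 had 25.5, 26.1 and 21.3 NRPKM in mutants, against 49.7, 51.6 and 50.1 NRPKM in controls. For both genes all mutants were below all controls, at log2 differences of −1.11 ± 0.26 and −1.03 ± 0.28 (SE; adjusted p = 0.133 and 0.183). Without the Sox8 Sox9 mutant growth plate library, which enters the shared estimate of the spread, both were called at an adjusted p of 0.0374. Slc26a2 had 6.76, 6.06 and 7.39 NRPKM in mutants, against 12.3, 11.8 and 10.7 NRPKM in controls (log2 difference −0.71 ± 0.19, SE; adjusted p = 0.171). Fam20b had 9.43, 8.37 and 11 NRPKM in mutants, against 15.9, 14.1 and 15.9 NRPKM in controls (log2 difference −0.63 ± 0.17, SE; adjusted p = 0.181). Neither overlapped between groups. Extl1 had 9.25, 5.95 and 3.64 NRPKM in mutants, against 30.5, 14.1 and 8.15 NRPKM in controls. Each mutant was below its own control, but the groups overlapped (log2 difference −1.24 ± 0.35, SE; adjusted p = 0.194, and 0.0435 without the Sox9 day 7 control growth plate library).

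Also without overlap, and lower in all 3 mutants, were Xylt1, Csgalnact1, Chst12 and Slc35d1. Xylt1 had 105, 91.2 and 101 NRPKM in mutants, against 216, 142 and 111 NRPKM in controls. Csgalnact1 had 9.49, 10.3 and 11.5 NRPKM in mutants, against 12.9, 12.2 and 13.3 NRPKM in controls. The gap between the groups was narrow for both. Chst12 had 68.7, 50.4 and 69.9 NRPKM in mutants, against 115, 81.9 and 85.4 NRPKM in controls, and Slc35d1 had 2.49, 2.28 and 2.52 NRPKM in mutants, against 3.21, 3.78 and 3.85 NRPKM in controls. Adjusted p-values of these 4 genes were 0.718, 0.807, 0.377 and 0.51. Higher in all 3 mutants were Xylt2, at 5.01 ± 1.61 NRPKM in mutants and 3.23 ± 0.169 NRPKM in controls, and Uxs1, at 12.1 ± 0.717 NRPKM in mutants and 10.4 ± 0.602 NRPKM in controls (SD, n = 3 each; adjusted p = 0.422 and 0.658).

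The remaining genes overlapped between mutant and control articular cartilage. Csgalnact2 had 72.5, 54.4 and 42.6 NRPKM in mutants, against 99.99, 81.3 and 60.8 NRPKM in controls, and each mutant was below its own control. Chsy1 had 15.2, 17.6 and 12.4 NRPKM in mutants, against 16.4, 14.9 and 13.5 NRPKM in controls, and Chsy3 had 13.1, 16.8 and 10.8 NRPKM in mutants, against 15.4, 14.1 and 11.6 NRPKM in controls. The ranges of both synthases overlapped widely. Chst3 had 18.7, 12.3 and 20.6 NRPKM in mutants, against 22.1, 19.4 and 24.7 NRPKM in controls. Chst15 had 6.65, 5.703 and 7.81 NRPKM in mutants, against 3.06, 5.902 and 8.25 NRPKM in controls, and Ust had 13.2, 7.8 and 13.98 NRPKM in mutants, against 9.13, 7.67 and 11.2 NRPKM in controls. Ust overlapped between groups and was not called here (log2 difference 0.27 ± 0.26, SE; adjusted p = 0.718). Dse had 24.4, 22.5 and 23.9 NRPKM in mutants, against 21.4, 19.1 and 28.8 NRPKM in controls. Slc35b2 had 8.13, 16.9 and 8.02 NRPKM in mutants, against 16.8, 12.04 and 10.4 NRPKM in controls, and Ugdh had 14.6, 16.7 and 21.2 NRPKM in mutants, against 11.5, 11.9 and 21.6 NRPKM in controls. All 3 kept the mutant and control ranges mixed.

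Heparan sulfate genes were likewise mixed in articular cartilage. Ext1 had 6.82, 5.87 and 7.47 NRPKM in mutants, against 4.18, 4.72 and 9.02 NRPKM in controls, and Ndst1 had 9.01, 10.2 and 11.2 NRPKM in mutants, against 10.7, 9.45 and 12.7 NRPKM in controls. Hs6st1 had 5.77, 5.096 and 7.901 NRPKM in mutants, against 5.89, 8.71 and 6.604 NRPKM in controls. Hs3st1 had 2.73, 1.91 and 8.63 NRPKM in mutants, against 3.32, 4.75 and 4.39 NRPKM in controls, so the mutants held both the lowest and the highest library. Sulf1 had 80.2, 98.4 and 60.3 NRPKM in mutants, against 70.6, 71.9 and 48.05 NRPKM in controls, and Sulf2 had 24.4, 20.0 and 24.5 NRPKM in mutants, against 14.2, 8.898 and 35.9 NRPKM in controls. Sulf2 varied more among the controls than among the mutants. Hs2st1 had 4, 1 and 3.51 NRPKM in mutants, against 2.06, 2.96 and 3.42 NRPKM in controls, and its value of 1 lies in the chromosome 3 run. With the run taken as missing, the log2 differences of Papss1, Extl2 and Hs2st1 became −0.11, 0.10 and 0.24, against −1.15, −0.60 and −0.08 as deposited.

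The difference between the mutant effects of the tissues was tested as an interaction, growth plate effect minus articular effect. None of the 41 genes passed, against 0.184 percent of all genes (27 of 14712; limma), made up of 0.0476 percent with a positive and 0.136 percent with a negative difference. Of the 41 genes, 15 had an unadjusted p under 0.05, which is 36.6 percent, against 10.7 percent of all genes. The lowest adjusted p, 0.136, was that of Slc26a2, at −1.29 ± 0.28, followed by Papss2 at −1.50 ± 0.33 (adjusted p = 0.144), Slc35d1 at −1.49 ± 0.34 (adjusted p = 0.152) and Ust at 1.26 ± 0.29 (adjusted p = 0.159). A call in growth plate beside none in articular cartilage therefore does not show that the tissues differed for any of these genes.

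Growth plate and articular cartilage of the controls differed in 14 members of the pathway. Higher in growth plate were the supply genes Papss2, Slc26a2, Slc35d1 and Slc35b2, the sulfotransferases Chst11 and Chst15, and Ext2. Lower were Csgalnact2, Chst3, the heparan sulfatases Sulf1 and Sulf2, Hs3st1, Dse and Ust. These 14 of the 41 genes are 34.1 percent, against 12.9 percent of all genes, with 7 higher (17.1 percent, against 4.26 percent) and 7 lower (17.1 percent, against 8.63 percent). The median difference, growth plate minus articular cartilage, was 0.13 over the 41 genes and −0.10 over all genes. All 3 growth plates were above all 3 articular cartilages for 11 genes (26.8 percent, against 9.31 percent of all genes) and below for 10 genes (24.4 percent, against 19.0 percent). Chondrocyte markers summed to 22490.0 to 34820.0 NRPKM in control growth plate, against 2963 to 5119 NRPKM in control articular cartilage. Of the 8 listed, 5 were called higher, or 62.5 percent, against 4.26 percent of all genes. Of 6 hypertrophic chondrocyte markers, 5 were called higher, or 83.3 percent. The superficial articular markers, such as Prg4, summed to 33.36 to 99.71 NRPKM in control growth plate, against 31330.0 to 36860.0 NRPKM in control articular cartilage. Osteoclast markers summed to 1056 to 1403 NRPKM in growth plate, against 41.08 to 259.5 NRPKM in articular cartilage. The part of chondrocyte types and of other cells in the tissue differences was not tested. With median ratio scaling the split was 9 higher and 5 lower.

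Of the 9 supply genes, 4 passed and were higher in control growth plate, or 44.4 percent, against 4.26 percent of all genes. All 4 were higher in all 3 control growth plates than in all 3 control articular cartilages. The other 5 did not pass, and of these Ugdh and Uxs1 had log2 differences of −0.08 and −0.26 (adjusted p = 0.891 and 0.393). Papss2 was 4.93-fold higher on the means, with a log2 difference of 2.27 ± 0.23 (SE; limma, adjusted p = 0.00045). Slc26a2 was 4.49-fold higher (2.04 ± 0.20; adjusted p = 0.000343), Slc35d1 2.89-fold (1.27 ± 0.24; adjusted p = 0.00964) and Slc35b2 2.3-fold (1.14 ± 0.18; adjusted p = 0.0045). The Slc35d1 call was lost without either control library of Sox9 day 7 or of Sox8 Sox9 day 14, with an adjusted p of up to 0.0835. Among sulfotransferases, Chst11 was 3.91-fold higher (1.98 ± 0.28; adjusted p = 0.00217) and Chst15 3.81-fold higher (1.82 ± 0.21; adjusted p = 0.000782) in growth plate. Ext2 was at 16.2 ± 2.71 NRPKM in growth plate and 10.4 ± 2.01 NRPKM in articular cartilage (SD, n = 3 each; 0.60 ± 0.17; adjusted p = 0.0493), and leaving out the Sox9 day 7 control of either tissue gave an adjusted p of 0.204.

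Lower in control growth plate were Csgalnact2, by 10.1-fold (−3.18 ± 0.29; adjusted p = 0.000267), Chst3, by 9.9-fold (−2.88 ± 0.22; adjusted p = 0.000128), Sulf2, by 6.89-fold (−2.26 ± 0.21; adjusted p = 0.000297), and Sulf1, by 3.53-fold (−1.77 ± 0.20; adjusted p = 0.000816). The fold of Sulf2 was 4.05 without the Sox8 Sox9 control of articular cartilage. That of Chst3 was 8.06 without the Sox9 day 7 control growth plate and 12.9 without the Sox8 Sox9 control growth plate. Control growth plate values of Chst3 and Sulf2, given above, lay near the lowest listed value of 1, so the size of their folds is uncertain. Papss2, Slc26a2, Chst11, Chst15, Slc35b2, Csgalnact2, Chst3, Sulf2 and Sulf1 were called in all 12 fits that left out 1 library. Dse (−0.78 ± 0.19; adjusted p = 0.0285) and Ust (−0.76 ± 0.21; adjusted p = 0.0457) were also lower. They were called in 4 and 2 of those 12 fits, and reached an adjusted p of 0.166 for Dse without the Sox8 Sox9 controls and 0.243 for Ust without the Sox9 day 7 control of articular cartilage. Hs3st1 was listed at 1 in all 3 control growth plates and at 3.32, 4.75 and 4.39 NRPKM in control articular cartilage, so no fold is given (adjusted p = 0.0335); this call too was kept in 4 of 12 such fits, with an adjusted p of up to 0.148.

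**Figure D3:**
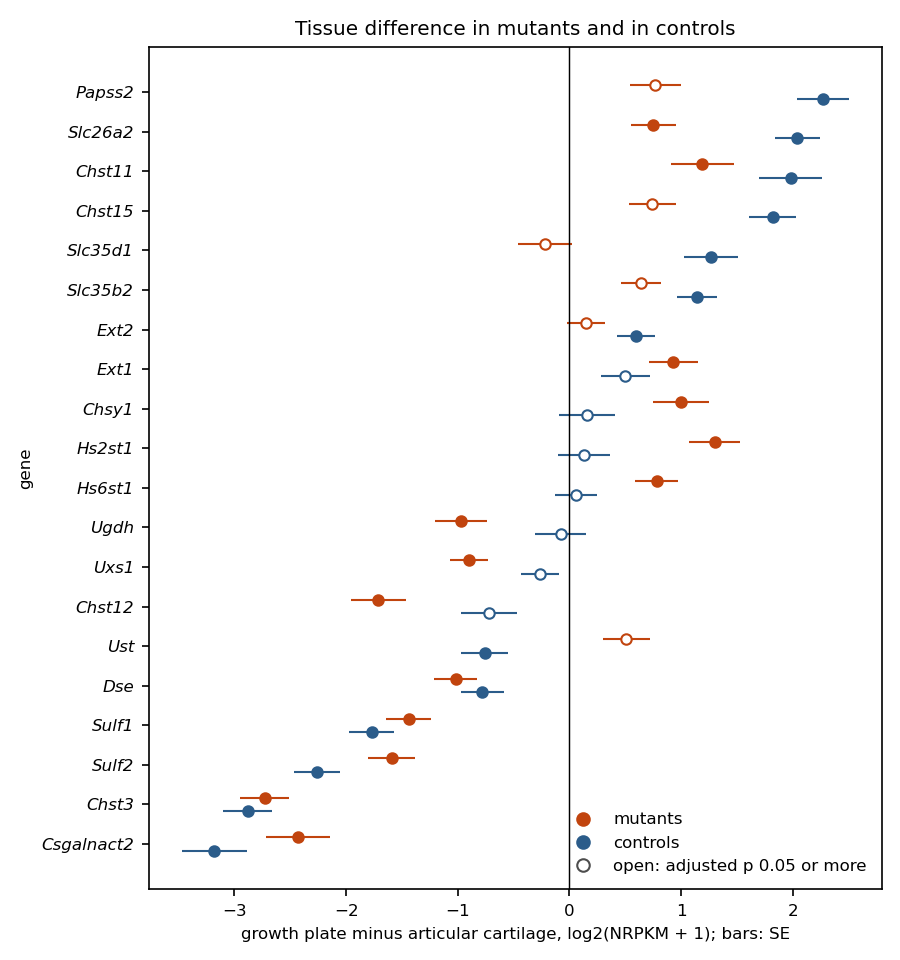
Fitted log2 difference, growth plate minus articular cartilage, in mutants (orange, upper of each pair) and in controls (blue, lower), for the 20 genes called in either; filled points passed at an adjusted p under 0.05 and bars are SE. Papss2, Slc26a2, Chst11 and Chst15 lie nearer 0 in mutants than in controls, Chst3 and Csgalnact2 are far below 0 in both, and Hs3st1, listed at 1 in all control growth plates, is not drawn.

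In the mutants, 14 of the 41 genes again differed between tissues, or 34.1 percent, against 10.2 percent of all genes, with 6 higher in growth plate (14.6 percent, against 4.3 percent of all genes) and 8 lower (19.5 percent, against 5.91 percent). The median difference was 0.01 over the 41 genes and −0.05 over all genes, and all 3 growth plates were above all 3 articular cartilages for 7 genes (17.1 percent, against 8.67 percent of all genes) and below for 12 genes (29.3 percent, against 12.6 percent). Both tissue comparisons share 1 estimate of the spread. Osteoclast markers summed to 1271 to 3234 NRPKM in mutant growth plate, against 80.86 to 146 NRPKM in mutant articular cartilage, and all 5 were higher. Osteoblast and osteocyte markers summed to 17200.0 to 23140.0 NRPKM in mutant growth plate, against 2330.0 to 4146 NRPKM in mutant articular cartilage, and superficial articular markers to 110.6 to 176.1 NRPKM, against 15740.0 to 27060.0 NRPKM. Their part in these tissue differences was not tested. Lower in mutant growth plate and called in all 12 fits that left out 1 library were Chst3 (−2.73 ± 0.22; adjusted p = 0.000205), Csgalnact2 (−2.43 ± 0.29; adjusted p = 0.00118), Chst12 (−1.71 ± 0.25; adjusted p = 0.00318), Sulf2 (−1.59 ± 0.21; adjusted p = 0.00192) and Sulf1 (−1.44 ± 0.20; adjusted p = 0.00254). Dse, Uxs1 and Ugdh were lower too, at log2 differences of −1.02, −0.90 and −0.97. Uxs1 had 6 ± 0.774 NRPKM in mutant growth plate and 12.1 ± 0.717 NRPKM in mutant articular cartilage (SD, n = 3 each).

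Higher in mutant growth plate were Hs2st1 (1.30 ± 0.23; adjusted p = 0.00718, and 1.10 ± 0.26 with adjusted p = 0.0358 when the chromosome 3 run is taken as missing), Chst11 (1.19 ± 0.28; adjusted p = 0.0275), Chsy1 (1.0 ± 0.25; adjusted p = 0.0388), Ext1 (0.93 ± 0.22; adjusted p = 0.03), Hs6st1 (0.78 ± 0.19; adjusted p = 0.0351) and Slc26a2 (0.75 ± 0.20; adjusted p = 0.0484). Each of the calls not held in all 12 fits was lost without at least 1 mutant library, and the adjusted p then reached 0.0826 for Dse, 0.0554 for Uxs1, 0.175 for Ugdh, 0.0522 for Hs2st1, 0.162 for Chst11, 0.124 for Chsy1, 0.138 for Ext1, 0.2 for Hs6st1 and 0.21 for Slc26a2. Fitted from the 6 mutant libraries alone, 5 of the 41 genes were called, and all 5 were lower in growth plate. At an unadjusted p under 0.05 (limma) there were 21, or 51.2 percent, against 19.2 percent of all genes. How many of all genes were called in that fit is given at the end. Papss2, called between control tissues, was at 0.77 ± 0.23 between mutant tissues (adjusted p = 0.0789), and Chst15 at 0.74 ± 0.21 (adjusted p = 0.0586).

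Within each pair of related genes, the balance can be given as a share of the summed NRPKM. This is a description without a test, and the pairs were chosen after their values were seen. Papss2 made up 77.0, 78.2 and 55.6 percent of Papss2 plus Papss1 in mutant growth plate, against 90.1, 90.0 and 95.1 percent in control growth plate. In articular cartilage it made up 60.1 and 59.6 percent in the Sox9 day 7 and Sox8 Sox9 mutants, against 73.0, 73.6 and 77.1 percent in controls, and the Sox9 day 14 mutant is left out because Papss1 lies in the run listed at 1. The share was thus lower in each mutant that could be read than in its control. Csgalnact1 made up 38.2, 46.5 and 10.6 percent of Csgalnact1 plus Csgalnact2 in mutant growth plate, against 83.2, 65.1 and 61.4 percent in control growth plate. It made up 11.6, 16 and 21.3 percent in mutant articular cartilage, against 11.5, 13.1 and 18.0 percent in control articular cartilage. Control growth plate was the only group in which Csgalnact1 exceeded Csgalnact2 in all 3 libraries.

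Chst11 and Chst3 act on different positions, 4-O and 6-O, and the share of Chst11 was higher in every growth plate library than in any articular cartilage library. This share leaves out Chst12, the second 4-O-sulfotransferase, so it is not the whole balance of the 4-O and 6-O positions. Mean Chst12 was above Chst11 in articular cartilage (63.0 against 35.0 NRPKM in mutants, 94.0 against 77.5 NRPKM in controls). It was below Chst11 in growth plate (19.2 against 86.4 NRPKM in mutants, 56.1 against 303 NRPKM in controls). Chst11 made up 98.6, 98.5 and 96.0 percent of Chst11 plus Chst3 in mutant growth plate, against 99.6, 99.2 and 98.9 percent in control growth plate. In articular cartilage it made up 68.9, 70.1 and 62.7 percent in mutants, against 81.5, 79.9 and 70.2 percent in controls. Xylt1 made up 92.8, 95.2 and 57.3 percent of Xylt1 plus Xylt2 in mutant growth plate, against 97.4, 96.1 and 96.4 percent in control growth plate, so only the Sox8 Sox9 mutant stood apart. Chsy3 made up 44.1, 49.3 and 15.5 percent of Chsy3 plus Chsy1 in mutant growth plate, against 55.3, 50.9 and 53.2 percent in control growth plate, and the Sox8 Sox9 mutant was again far below the rest.

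**Figure D4:**
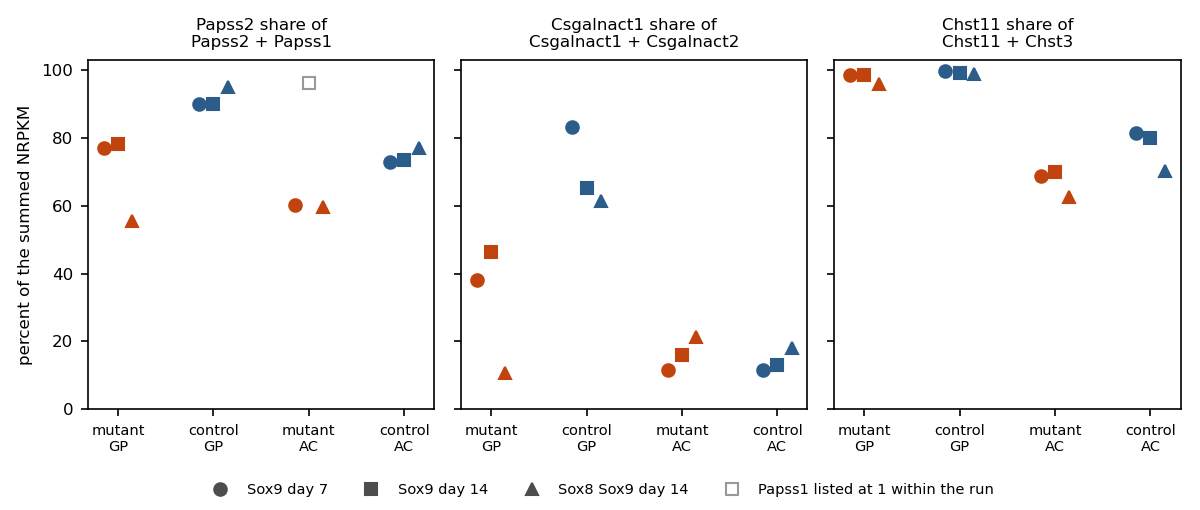
Share of the first gene, in percent of the summed NRPKM of both, for Papss2 with Papss1, Csgalnact1 with Csgalnact2, and Chst11 with Chst3, in each library; mutant growth plate (GP), control GP, mutant articular cartilage (AC) and control AC run from left to right, orange is mutant, blue is control and the shape gives the set. Csgalnact1 lies at 61.4 to 83.2 percent in control growth plate and at 46.5 percent or less in every other group, and the open grey square is a share computed with Papss1 listed at 1 in the run.

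Days and genotypes have 1 pair each and were set side by side without a test. In growth plate, the mutant value of Papss2 was 21.8, 27.5 and 8.12 percent of its matched control in the Sox9 pair of day 7, the Sox9 pair of day 14 and the Sox8 Sox9 pair. Csgalnact1 was at 26.3, 29.5 and 9.69 percent, Xylt1 at 41.1, 51.9 and 5.2 percent, and Ust at 431, 167 and 482 percent of control. These 4 lay farthest from control in the Sox8 Sox9 pair, as did 9 of the 15 genes called in growth plate. Another 3 of the 15 (Slc26a2, Glce and Hs2st1) lay farthest in the Sox9 pair of day 7, and 3 (Fam20b, Chpf and Sulf2) in the Sox9 pair of day 14. Slc26a2 was at 19.0, 33.5 and 20.5 percent of control, and Fam20b at 48.1, 28.2 and 42.2 percent. How all genes split over the 3 pairs was not counted. The chondrocyte marker sum was also lowest in the Sox8 Sox9 mutant growth plate, at 1555 NRPKM. Sox9 itself was at 236, 148 and 35.97 NRPKM in mutant growth plate, against 314, 335 and 308 NRPKM in control growth plate. The headers name R26tdT/+ only for the Sox9 sets. Floxed Sox8, the level of Sox9 left and the reporter allele therefore cannot be told apart between the sets. Of the 41 genes, 8, 8 and 11 were lower by at least 1 on the log2 scale in the 3 growth plate pairs, against 3.24, 5.21 and 5.18 percent of all genes. In the articular pairs 3, 4 and 1 were, against 2.05, 4.38 and 1.72 percent of all genes, and the 4 include Papss1 and Extl2, whose values of 1 lie in the run.

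Other genes of proteoglycan biology were counted by list. Of 20 listed core proteins, 8 fell in mutant growth plate, or 40.0 percent, against 2.82 percent of all genes, and 3 rose, or 15 percent, against 7.92 percent of all genes. Col9a2, a collagen chain that can carry chondroitin sulfate, had 186, 455 and 20.1 NRPKM in mutants, against 3767, 2151 and 1687 NRPKM in controls. Acan had 274, 288 and 27.8 NRPKM in mutants, against 2887, 1694 and 1796 NRPKM in controls. Epyc, the small cartilage proteoglycan epiphycan, had 36.01, 32.1 and 6.26 NRPKM in mutants, against 140.1, 85.8 and 85.98 NRPKM in controls. All 3 were without overlap, at log2 differences of −4.30 ± 0.69, −3.97 ± 0.58 and −2.30 ± 0.43 (SE; adjusted p = 0.00731, 0.00398 and 0.0111), but the mutants carry the Cre allele at Acan itself. The 3 that rose were Dcn, Srgn and Agrn. In articular cartilage 1 of the 20 rose, against 0.156 percent of all genes: Vcan, a proteoglycan of provisional matrix, had 32.8, 48.2 and 53.1 NRPKM in mutants, against 11.6, 13.2 and 23.4 NRPKM in controls (1.46 ± 0.18, SE; adjusted p = 0.0161).

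Of 9 hyaluronan genes, 2 fell in mutant growth plate, or 22.2 percent, against 2.82 percent of all genes, and 3 rose, or 33.3 percent, against 7.92 percent of all genes. Hapln1, which links aggrecan to hyaluronan, had 178, 161 and 14.2 NRPKM in mutants, against 1449, 876 and 801 NRPKM in controls, and Has2, a hyaluronan synthase, had 2.38, 1.08 and 1 NRPKM in mutants, against 8.46, 5.58 and 7.2 NRPKM in controls. Every mutant was below every control for both genes (adjusted p = 0.00604 and 0.00109), and the hyaluronan receptor Cd44 was called higher (1.25 ± 0.29, SE; adjusted p = 0.0227). Of 6 further chondroitin and heparan sulfate enzymes, 2 fell, or 33.3 percent, against 2.82 percent of all genes: the 3-O-sulfotransferases Hs3st3b1, at 5.698, 2.46 and 1 NRPKM in mutants, against 21.1, 18.8 and 40.95 NRPKM in controls, and Hs3st3a1, at 4.94, 2.38 and 1 NRPKM in mutants, against 14.7, 18.8 and 25.9 NRPKM in controls. They are close relatives, and whether the counting could split their reads is not stated. Of 16 listed genes of sugar nucleotide supply and of transport, 3 fell, or 18.8 percent, against 2.82 percent of all genes, and 0 rose. Those that fell included Gfpt2, an enzyme of hexosamine synthesis (−1.95 ± 0.31; limma, adjusted p = 0.00542). A carrier of citrate, Slc13a5, which does not itself supply sugar nucleotides, fell too (−1.33 ± 0.28; adjusted p = 0.0174).

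Of 15 listed genes of glycosaminoglycan degradation, 2 rose in mutant growth plate, or 13.3 percent, near the 7.92 percent of all genes that did. They were Naglu, of heparan sulfate breakdown (0.83 ± 0.24, limma adjusted p = 0.0496), and Glb1, a galactosidase (0.75 ± 0.20, limma adjusted p = 0.0391). Macrophage markers were higher in the same libraries, as given above, and their part was not tested. None of 9 keratan sulfate genes passed in growth plate (limma), against 10.7 percent of all genes, a share too small for 9 genes to differ from clearly. At an unadjusted p under 0.05 there were 2 of the 9, against 27.1 percent of all genes. In articular cartilage 1 of the 9 fell, against 0.197 percent of all genes: Chst5, a sulfotransferase for N-acetylglucosamine, had 13.3, 10.8 and 18.1 NRPKM in mutants, against 53.2, 33.5 and 43.2 NRPKM in controls (−1.56 ± 0.25, SE; adjusted p = 0.0368), with no overlap.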

How the data were processed

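RPKM values, 1 column for each library, were deposited after a further normalisation (NRPKM, per the file headers). Cartilage was captured by laser, and 10 ng of RNA went into each stranded total RNA library, per the labels' protocols. The submitters' processing notes name build mm10. Which aligner, counter, annotation and normalisation the authors used is not stated in the labels or headers, so reads of close relatives or antisense genes may be shared. Coordinates are from GENCODE M21.

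Values were taken as log2(value + 1), so differences of low genes are understated, and all 12 libraries entered 1 limma fit (version 3.58.1, with statmod 1.5.0 and R 4.3.3; moderation was robust and followed the mean). Mutant effects used the set (floxed alleles and day) as a block with 4 cells of tissue by Cre. Tissue comparisons and the interaction instead had 6 blocks, 1 for each mouse genotype at each day. Each block held 1 library of either tissue, so a library left alone in its block no longer informed these comparisons. Calls were at a Benjamini-Hochberg adjusted p under 0.05 over 14712 genes. A filter of a mean of at least 1 removed no gene. The method was also run on simulated data of independent noise, with changes added only to genes of higher level. Those data had no set effects, no lowest value and no shared animals. That run therefore does not bear on calls of low genes or on calls that depend on the blocks.

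The members, lists and tests were chosen with earlier results of these data known. Values in every library are given for genes called with an absolute log2 difference of at least 1 and for a set of 15 fixed by name; other lists name up to 3 called genes, and 1 gene of these is not reported here. Named outside this rule, after their values were seen, are Srgn, Agrn and the marker genes. The alternatives tried were other added values, filters and scalings, other blocks, subsets of libraries, leaving out each library, and the chromosome 3 run as missing, which was added after seeing the data.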

Additional observations from a re-analysis of the deposited data

Results flagged for a closer look

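Hspg2 encodes perlecan, a heparan sulfate proteoglycan of the matrix around chondrocytes. Its mutant effect differed between the tissues by the interaction term, growth plate minus articular cartilage, at −2.07 ± 0.28 on the log2 scale (SE; limma, adjusted p = 0.0405). It had 108, 106 and 83.99 NRPKM in mutant growth plate, against 489, 353 and 427 NRPKM in control growth plate, and 85.2, 76.02 and 86.6 NRPKM in mutant articular cartilage, against 77.6, 78.2 and 91.95 NRPKM in control articular cartilage. All growth plate mutants were below all growth plate controls, and the articular groups overlapped. When each library was left out in turn, 0 to 4 of 14712 genes passed this interaction. Chondrocyte markers fell in the same growth plate libraries, and their part was not tested.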

How the results depend on the processing

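Counts are of the 41 genes called. For the mutant effect in growth plate, 15 were called as reported, 9 with no replicate block, 5 from the Sox9 sets and 0 from the 6 growth plate libraries alone, and 9 to 14 when each library was left out. A replicate block for each matched pair gave 10. Labels number no replicates, so the blocks rest only on matching alleles and day, and whether they pair animals is unknown. Without a library, counts ran from 0 to 2 for the articular mutant effect, 9 to 15 for the control tissues, 7 to 13 for the mutant tissues (14 as reported) and 0 to 0 for the interaction. The mutant tissues gave 8 genes from the Sox9 sets and 5 from the compared libraries alone. Some of these fits had fewer libraries, and the cause of the moves was not tested. No sign of a called result was reversed in any alternative run. Over single genes, 3031 values kept their side of the threshold, 224 lost a call and 36 gained one. The 3031 include values called in neither run, whose direction could change, as for Hs2st1 in articular cartilage with the run missing. Over all genes, the growth plate effect had 1580 calls as reported, 945 with no replicate block, 274 from the Sox9 sets, 0 alone and 658 to 1927 without a library. The articular effect had 52, against 29 with no replicate block, 12 with pair blocks, 24 from the Sox9 sets, 2 alone and 6 to 101 without a library. Control tissues gave 1896, against 1058 from the Sox9 sets, 866 alone and 894 to 2068 without a library. Mutant tissues gave 1501, against 759, 781 and 796 to 1362. The interaction gave 27, against 15 with 0.1 added before logs, 0 from the Sox9 sets and 0 to 4 without a library. Depth is unknown, and a value of 1 may stand for anything lower.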
